A study of Mus musculus with 8 samples.

Results

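Transcripts of 8 Kruppel-like factors, Klf2, Klf3, Klf4, Klf5, Klf6, Klf9, Klf10 and Klf17, were followed in mouse preimplantation embryos after knockdown of Smarca5. The 8 genes were taken by symbol from the 21517 genes listed in either of 2 expression tables, and all 8 had values in both. The family was chosen by a measured value, the lower abundance of Klf4 in knockdown than in control (NC) embryos in earlier results of these data. The stage of that result is not given, and it is taken here to be the morula, where the difference was larger. The comparison in morulae is therefore given for all 8 members as a description, and the members are tested in blastocysts alone. Should blastocyst values have entered the choice, the blastocyst test of Klf4 is not independent of it.

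The groups were Snf2h KD morulae, NC morulae, Snf2h KD blastocysts and NC blastocysts, with 2 libraries each and 20 embryos pooled per library. Snf2h is another name of Smarca5, which encodes an ATPase of the ISWI family that slides nucleosomes. A morula is a compacted ball of cells, and in a blastocyst a cavity has formed between the trophectoderm, its outer layer, and the inner cell mass. The sources used here do not give how the knockdown was made, what NC received, the mouse strain or whether replicate libraries stem from different litters. The p-values thus reflect the scatter of these particular libraries, and that scatter may be technical. Embryos were taken at E3.75 and E4.25, and the labels do not tie a day to a stage.

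Kruppel-like factors are transcription factors with zinc fingers at the end of the protein, which bind GC-rich DNA such as the CACCC box. Klf2, Klf4 and Klf5 act together in mouse embryonic stem cells to keep the naive pluripotent state, and the signal of the cytokine LIF reaches Klf4 through STAT3. Klf5 is also needed in the mouse blastocyst for trophectoderm and inner cell mass. Klf3, Klf9 and Klf10 are mostly repressors that recruit CtBP or Sin3 corepressor complexes.

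Each value is a normalized abundance, the unit the authors deposited. It was scaled between the 4 libraries of a stage and is not corrected for transcript length, so a level is compared between the stages by no test. Column sums corresponded to an estimated 16177233 to 18568726 reads in morulae and 13958285 to 23304895 in blastocysts. The estimate rests on genes seen in a single library and is rough, since whole reads were not recovered for genes seen in several. In KD libraries Smarca5 itself was 501 and 470, against 9678 and 9760 in NC, in morulae, and 906 and 855, against 7000 and 8283, in blastocysts. Its mean was 20.0-fold lower in KD morulae and 8.68-fold lower in KD blastocysts (limma adjusted p = 1.88e-04 and 5.93e-04). Pou5f1, Cdx2 and Krt8, which mark cells of the early embryo, were high in every library (at least 19699, 2988 and 9120.0).

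Klf4 had the lowest KD values relative to NC among the 8 genes in morulae. It lies on mm10 chromosome 4 (ENSMUSG00000003032, 55527143 to 55532466, minus strand). Its abundance was 774 and 1018 in KD morulae, against 1958 and 2369 in NC morulae, or 896 ± 172 and 2163 ± 291 (SD, n = 2 each). Neither KD library reached the lower NC library, and the means differed 2.41-fold (log2 fold change -1.28, the value taken to have led to the choice of the family). Of all 13404 genes tested in morulae, 2.01% had a log2 fold change at or below that of Klf4. Since that value is taken to have chosen the family, this share does not measure how unusual Klf4 is. In these pooled embryos, fewer cells with a transcript and less of it per cell cannot be told apart.

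In blastocysts the difference in Klf4 was smaller and did not pass the test. Klf4 was 1504 and 1585 in KD blastocysts, against 1612 and 2583 in NC blastocysts, or 1544 ± 57.1 and 2097 ± 686 (SD, n = 2 each). Both KD libraries were again the lower ones, with the first NC library just above them. The log2 fold change was -0.40 (SE 0.21, limma adjusted p = 0.382), with a 95% interval of -0.91 to 0.10 that is not adjusted for the number of genes. Without NC replicate 2 the value was -0.06, and without NC replicate 1 it was -0.74, so the size rests on the spread between the NC libraries. Whether the change differs between the stages was not tested, because the morula value is taken to have chosen the gene.

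Klf2, which overlaps with Klf4 in function in mouse stem cells, showed a wide spread in morulae. It lies on chromosome 8 (ENSMUSG00000055148, 72319033 to 72321656, plus strand). Abundance was 1265 and 2233 in KD morulae, against 1498 and 2796 in NC morulae. The groups overlapped, the second library of each group was 1.77-fold (KD) and 1.87-fold (NC) above the first, and the log2 fold change was -0.28. It ran from -0.73 to 0.17 when a library was left out, with a positive sign without KD replicate 1 (0.13) or NC replicate 2 (0.17). In blastocysts Klf2 was 1439 and 1246 in KD, against 1611 and 1809 in NC, with both KD libraries below both NC libraries. The log2 fold change was -0.35 (SE 0.13), which did not pass over all genes (limma adjusted p = 0.232), with an unadjusted 95% interval of -0.65 to -0.05.

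The 250 bases before the RefSeq start are printed for Klf4 and Klf2, the members that were lower in both KD blastocyst libraries, and for Klf9, the member that was higher in both KD libraries at both stages. RefSeq held a promoter of 6 of the 8 members on GRCm38.p6. Capitals mark CACCC, the box bound by Kruppel-like factors, and CCGCCC, the GC box, on either strand.
Klf4, chr4:55532476-55532725, minus strand: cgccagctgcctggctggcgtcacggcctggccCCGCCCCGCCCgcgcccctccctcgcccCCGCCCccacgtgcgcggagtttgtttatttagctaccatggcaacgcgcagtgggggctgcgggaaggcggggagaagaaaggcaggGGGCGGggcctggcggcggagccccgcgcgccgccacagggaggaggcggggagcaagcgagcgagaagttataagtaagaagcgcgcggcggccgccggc
Klf2, chr8:72318812-72319061, plus strand: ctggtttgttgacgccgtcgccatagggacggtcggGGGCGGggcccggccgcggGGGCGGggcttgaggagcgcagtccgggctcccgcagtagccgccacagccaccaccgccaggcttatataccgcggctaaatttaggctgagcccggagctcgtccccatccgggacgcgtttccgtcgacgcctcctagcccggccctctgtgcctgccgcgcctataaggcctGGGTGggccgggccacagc
Klf9, chr19:23140976-23141225, plus strand: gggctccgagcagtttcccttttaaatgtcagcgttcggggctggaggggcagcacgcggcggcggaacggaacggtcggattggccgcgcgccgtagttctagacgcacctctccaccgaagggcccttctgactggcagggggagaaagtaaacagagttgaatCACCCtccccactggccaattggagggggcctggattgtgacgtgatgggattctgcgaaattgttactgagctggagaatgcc
Klf4 held 4 GC boxes and 0 CACCC boxes, Klf2 held 2 and 1, and Klf9 held 0 and 1. Of the members not printed, Klf3, which was higher in both KD blastocyst libraries, held 6 GC boxes and 5 CACCC boxes at 78.4% GC, Klf17 held 2 and 3, and Klf6 held 1 and 0. Klf5 and Klf10 had no window, and no member passed the test in blastocysts. Whether counts of boxes go with the direction of change was not tested. CACCC occurred in 52.0% and CCGCCC in 32.7% of 32851 promoter windows of this length. GC content was 74.0% for Klf4, 71.2% for Klf2 and 59.6% for Klf9, with a median of 52.4% over all windows. The letters TTCNNNGAA, a core of STAT sites that reads the same on both strands, were in 1 place in Klf9 and in 0 places in Klf4 and Klf2, and in 7.02% of all windows. These matches describe the letters of the windows and do not show that a factor binds there.

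Klf5 had the highest level per kilobase of the 8 transcripts in every group. It lies on chromosome 14 (ENSMUSG00000005148, 99298691 to 99315036, plus strand). In morulae it was 10032 and 7754 in KD, against 8854 and 9156 in NC, with the NC libraries between the KD libraries (log2 fold change -0.03). In blastocysts it was 14047 and 14676 in KD, against 12432 and 12489 in NC. Both KD blastocyst libraries were higher, and the means, 14361 ± 445 and 12461 ± 40.3 (SD, n = 2 each), differed 1.15-fold. The log2 fold change of 0.20 (SE 0.07) did not pass over all genes (limma adjusted p = 0.234), and its unadjusted 95% interval was 0.03 to 0.38.

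Klf17, which marks oocytes and cleavage stages in the mouse and naive cells in humans, was among the 2 lowest members per length in every group. It lies on chromosome 4 (ENSMUSG00000048626, 117757836 to 117765648, minus strand). In morulae it was 147 and 241 in KD, against 71.3 and 154 in NC. The groups overlapped by the narrow margin between the lower KD and the higher NC library, and the log2 fold change was 0.84, or 0.29 without NC replicate 1. In blastocysts it was 115 and 51.0 in KD, against 46.0 and 45.4 in NC. The log2 fold change of 0.73 (SE 0.47, limma adjusted p = 0.458) was 0.16 without KD replicate 1 and 1.31 without KD replicate 2. Of the 2370 words of 31 bases in the Klf17 transcript, 10.8% also occur in the pseudogene Gm20690, so reads could be split between them. The deposited values under the name Gm20690 were at most 5.61, below every Klf17 value. They do not bound the uncertainty of Klf17, since shared reads may have been assigned to Klf17, and its size was not measured.

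**Figure D1:**
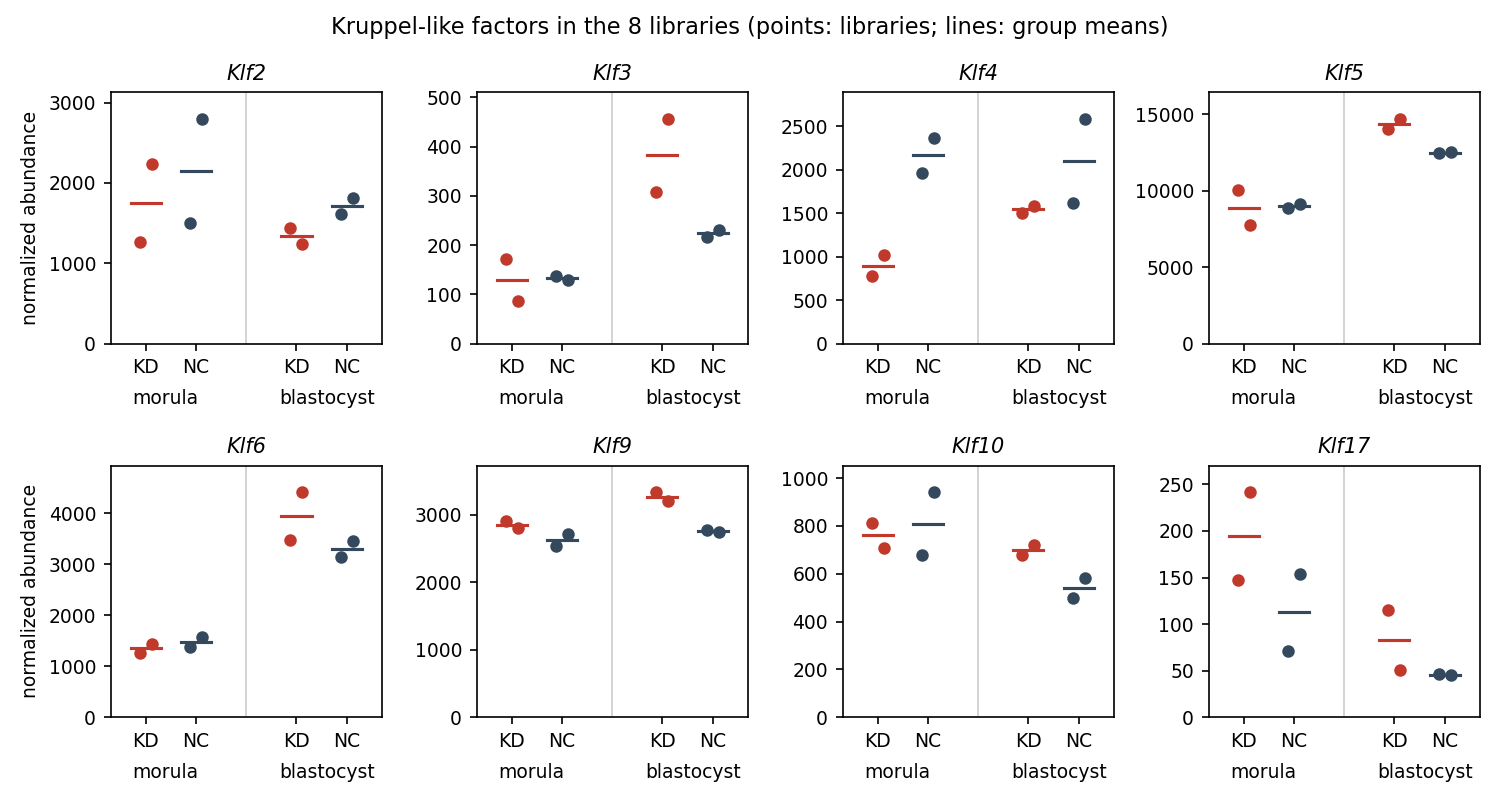
Normalized abundance (y axis, from 0, own scale per gene) of each Kruppel-like factor in KD and NC libraries of morulae and blastocysts, with points for libraries and lines for means of 2. In blastocysts KD and NC points do not overlap for any of the 8 genes, while in morulae they are apart for Klf4 and Klf9. Of all tested genes, 49.5% had no overlap in blastocysts and 41.9% in morulae.

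Klf3 was higher in both KD blastocyst libraries, with a log2 fold change close to that of Klf17. It acts through the corepressor CtBP and lies on chromosome 5 (ENSMUSG00000029178, 64803388 to 64832901, plus strand). In blastocysts Klf3 was 309 and 456 in KD, against 217 and 232 in NC, or 383 ± 104 and 224 ± 10.2 (SD, n = 2 each). Both KD libraries were higher, 1.70-fold by the means, with a log2 fold change of 0.74 (SE 0.24, limma adjusted p = 0.196) and an unadjusted 95% interval of 0.17 to 1.31. Without KD replicate 2 the log2 fold change was 0.46, and the sizes of both Klf3 and Klf17 thus depend on single libraries. In morulae Klf3 was 173 and 85.8 in KD, against 137 and 129 in NC, and the KD libraries lay on either side of NC (log2 fold change -0.12).

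Klf9 was higher in both KD libraries at both stages, by small amounts. It is a repressor induced by glucocorticoid and thyroid hormone and lies on chromosome 19 (ENSMUSG00000033863, 23141226 to 23168134, plus strand). In morulae it was 2903 and 2799.8 in KD, against 2536 and 2713 in NC (log2 fold change 0.12). In blastocysts it was 3333 and 3205 in KD, against 2781 and 2748 in NC, and the means, 3269 ± 90.6 and 2764 ± 22.9 (SD, n = 2 each), differed 1.18-fold. The blastocyst log2 fold change of 0.24 (SE 0.09) did not pass over all genes (limma adjusted p = 0.244). Its unadjusted 95% interval was 0.03 to 0.46.

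Klf10, also called TIEG1 for its induction by TGF-beta, lies on chromosome 15 (ENSMUSG00000037465, 38291463 to 38300706, minus strand). In morulae it was 813 and 708 in KD, against 679 and 939.5 in NC, and the KD libraries lay between the NC libraries. In blastocysts it was 679 and 721 in KD, against 497 and 583 in NC, with both KD libraries higher (log2 fold change 0.38, SE 0.15, limma adjusted p = 0.275). Klf6, a widely expressed member studied as a tumour suppressor, lies on chromosome 13 (ENSMUSG00000000078, 5861482 to 5870394, plus strand). It was 1264 and 1436 in KD morulae, against 1382 and 1572 in NC morulae, with overlapping groups. In blastocysts Klf6 was 3479 and 4407 in KD, against 3143 and 3451 in NC. Its KD libraries were the higher ones by a narrow margin (log2 fold change 0.25, SE 0.13, limma adjusted p = 0.384), and the value was 0.08 without KD replicate 2. The unadjusted 95% intervals were 0.01 to 0.74 for Klf10, -0.07 to 0.56 for Klf6 and -0.38 to 1.85 for Klf17.

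Counted over the family, 6 members had both KD blastocyst libraries above both NC libraries, and 2 had both below. Among all 13651 tested blastocyst genes the share was 24.6% above and 24.9% below, or 49.5% without overlap. None of the 8 members passed at an adjusted p under 0.05 in limma, where 0.0879% of all genes did (0.0366% higher and 0.0513% lower), and 5 had an unadjusted p under 0.05, as did 17.6% of all genes. The median log2 fold change of the 8 was 0.25, against 0.0017 for all genes. In morulae 1 member was above (20.7% of all genes) and 1 below (21.2%; 41.9% without overlap), with a median of -0.10. Nothing is read from these counts, since that comparison is taken to have chosen the family. There 0.00746% of genes passed, Smarca5 being the gene that did, and 10.4% had an unadjusted p under 0.05. Klf4 was the member with KD below NC at both stages (9.54% of the 12875 genes tested in both) and Klf9 the member with KD above NC at both (9.41%). For Klf4 the morula side is taken to follow from the choice of the family. For 0 members KD lay above NC at one stage and below at the other, as it did for 4.33% of genes.

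**Figure D2:**
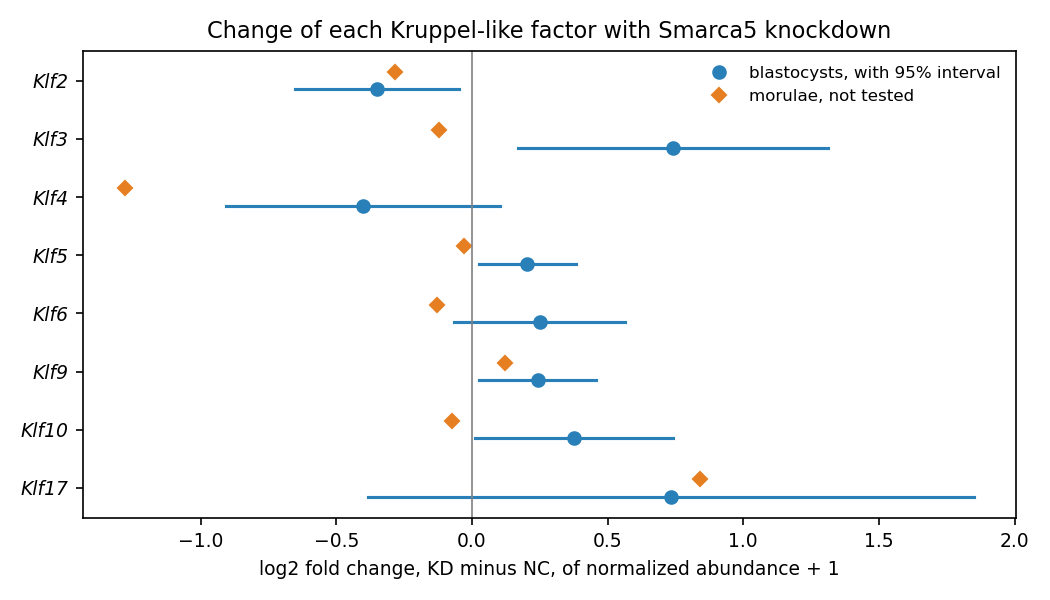
Log2 fold change, KD minus NC, of normalized abundance + 1 (x axis) for each Kruppel-like factor (y axis), with circles and unadjusted 95% intervals of limma for blastocysts and diamonds for morulae, which were not tested. Klf4 is farthest to the left in morulae (-1.28), and the blastocyst values run from -0.40 for Klf4 to 0.74 for Klf3.

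Levels of different members were compared per kilobase of the longest annotated transcript, within a group. In KD morulae the order was Klf5 (2653 ± 480), Klf2 (947 ± 371), Klf9 (636 ± 16.4), Klf6 (320 ± 28.8), Klf4 (296 ± 56.9), Klf10 (249.8 ± 24.5), Klf17 (81.0 ± 27.7) and Klf3 (24.8 ± 11.8; SD, n = 2). The libraries of Klf6 and Klf4 overlapped, as did those of Klf4 and Klf10. In NC morulae Klf4 (714 ± 96.0) came after Klf5 and Klf2 and above Klf9 (585 ± 27.9), Klf6 (349.6 ± 31.8) and Klf10 (266 ± 60.4), with no overlap between neighbours. Klf4 thus had rank 5 in KD and rank 3 in NC morulae.

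In KD blastocysts the order per kilobase was Klf5 (4284 ± 133), Klf6 (933 ± 155), Klf9 (729 ± 20.2), Klf2 (727 ± 73.7), Klf4 (509.9 ± 18.8), Klf10 (229.9 ± 9.65), Klf3 (73.3 ± 20.0) and Klf17 (34.5 ± 18.8; SD, n = 2). Klf9 and Klf2 overlapped there. In NC blastocysts it was Klf5 (3717 ± 12.0), Klf2 (926 ± 75.7), Klf6 (780.4 ± 51.5), Klf4 (692 ± 227), Klf9 (616 ± 5.11), Klf10 (177 ± 20.0), Klf3 (43.0 ± 1.96) and Klf17 (19.04 ± 0.197). Klf6 and Klf4 overlapped, as did Klf4 and Klf9. With the union of all exons as the length, Klf9 changed places with Klf2 and Klf3 with Klf17 in KD blastocysts, and the level of Klf3 moved most, to a mean of 11.5 per kilobase in KD morulae and 34.0 in KD blastocysts. That of Klf5 was then 1709.9 in KD morulae.

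The share of each member in the summed per-kilobase value of the 8 does not change with a factor common to all genes of a library. Whether the deposited scaling also holds factors that differ between genes is not known. Such factors could shift the shares, so shares at different stages are set side by side as a description only. Klf5 made up 57.1% and 44.7% in KD morulae, 50.1% and 42.7% in NC morulae, 56.9% and 57.0% in KD blastocysts and 55.3% and 51.4% in NC blastocysts. The shares do depend on the length used. With the union of all exons, the mean share of Klf5 was 41.6% in KD and 37.0% in NC morulae. In blastocysts it was then 47.5% in KD and 43.6% in NC. Klf4 made up 4.88% and 6.50% in KD morulae, against 12.3% and 12.2% in NC morulae, and 6.74% and 6.81% in KD blastocysts, against 7.94% and 11.8% in NC blastocysts. Klf6 made up 5.71% and 6.57% in KD morulae and 6.21% and 5.81% in NC morulae. In blastocysts its share was 11.2% and 13.6% in KD and 11.1% and 11.3% in NC, above every morula library. The mean share of Klf17 was 1.56% in KD and 0.782% in NC morulae, and 0.463% in KD and 0.274% in NC blastocysts (SD 0.547, 0.310, 0.263 and 0.0178, n = 2 each). These shares depend on each other, since they add up in a library, and were not tested.

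**Figure D3:**
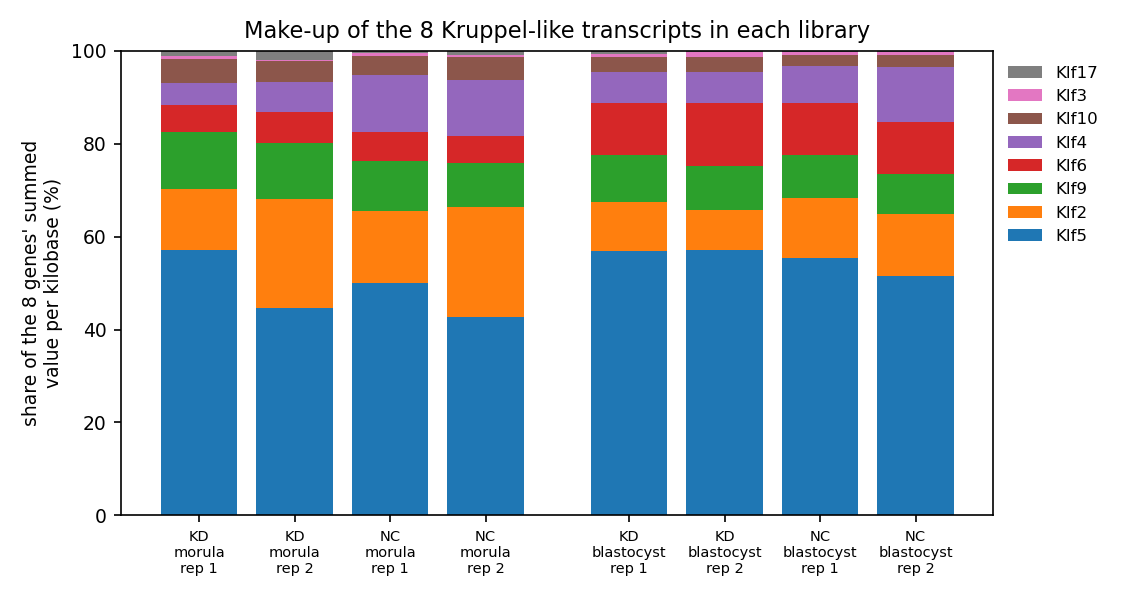
Share in percent (y axis) of each of the 8 Kruppel-like factors in their summed value per kilobase, 1 bar per library, for KD and NC morulae and then KD and NC blastocysts. With the longest transcript as the length, Klf5 takes 42.7% to 57.1% of each bar. The Klf4 segment is 4.88% and 6.50% in KD morulae against 12.3% and 12.2% in NC morulae.

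The rest of the family was compared from fixed lists. For every list, the shares over all genes to read its counts against are 20.7% with KD above NC and 21.2% below in morulae, and 24.6% and 24.9% in blastocysts, while 6601 genes were higher and 6803 lower in morulae, and 6862 and 6789 in blastocysts. Of 9 other Kruppel-like factors, 7 passed the filter on low values in morulae and 8 in blastocysts, and none passed the test (lowest limma adjusted p = 0.485 and 0.386). KD lay above NC for 1 of them at each stage and below for 0, with a median log2 fold change of -0.11 in morulae and -0.04 in blastocysts. Leaving out a library moved these medians between -0.24 and 0.03 in morulae and between -0.07 and 0.13 in blastocysts, across 0. Klf8, a repressor that acts through CtBP, was 563 and 499.9 in KD morulae, against 316 and 425 in NC morulae (log2 fold change 0.53). Klf11, a relative of Klf10, was 361 and 269 in KD morulae, against 344 and 526 in NC morulae. In blastocysts Klf1, the erythroid factor, was 18.4 and 13.6 in KD, against 6.74 and 4.86 in NC, and Klf15 was 438 and 268 in KD, against 564 and 371 in NC.

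Sp factors, which bind GC boxes with the same type of zinc fingers, were tested for 6 genes in morulae and 7 in blastocysts. None passed (lowest limma adjusted p = 0.403 and 0.118). KD lay above NC for 4 and below for 1 in morulae, and above for 3 and below for 0 in blastocysts (24.6% and 24.9% of all genes; 20.7% and 21.2% in morulae). Sp6 was 382 and 421 in KD morulae, against 187 and 271 in NC morulae, and Sp2 was 807 and 761, against 621 and 606. In blastocysts Sp8 was 21.9 and 23.2 in KD and 1.09 and 0 in NC, and Sp9 was 27.3 and 39.6 in KD and 5.75 and 17.1 in NC. Both are low, and their fold changes depend on the pseudocount.

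Routes known to induce members were listed next. LIF signals through LIFR and gp130 to JAK kinases and STAT3, which acts on Klf4. Stat3 was 749 and 676 in KD morulae, against 1828 and 1099.9 in NC morulae, so both KD libraries were lower (log2 fold change -0.99, limma adjusted p = 0.362). Lif was 109 and 123 in KD morulae, against 177 and 248 in NC morulae (-0.85, adjusted p = 0.432 in limma). In morulae Lifr was 7.08 and 5.72 in KD, against 1.47 and 16.2 in NC, and did not pass the filter on low values. Il6st, which encodes gp130, was 26.7 and 22.6 in KD, against 36.5 and 27.0 in NC. Of the genes tested in morulae 4 were higher, among them Pim1 (0.52) and Pim3 (0.39), and 6 were lower. In blastocysts Stat3 was 3671 and 4135 in KD, against 3615 and 3984 in NC, and the groups overlapped. There Ptpn11, a phosphatase of the pathway, was 2253 and 1922 in KD, against 2919 and 3025 in NC (-0.51, limma adjusted p = 0.113), and the kinase Pim3 was 1195 and 1169, against 811 and 841 (0.52, adjusted p = 0.121). None of the 10 tested genes of this list in morulae or the 11 in blastocysts passed. KD was above NC for 1 and below for 3 in morulae (20.7% and 21.2% of all genes), and above for 4 and below for 2 in blastocysts (24.6% and 24.9%), with medians of -0.06 and -0.18. Both medians ran across 0 when a library was left out (-0.16 to 0.04 and -0.27 to 0.04). Any link of these values to Klf4 was not tested.

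The kinase ERK5 and the factors MEF2 induce Klf2 and Klf4 in endothelial cells. Of this route 5 genes were tested in morulae and 6 in blastocysts, none passed (lowest limma adjusted p = 0.574 and 0.244), and the medians were -0.24 and -0.05. Mef2d was 1730.3 and 1722 in KD morulae, against 2043 and 2031 in NC morulae, and Mapk7, which encodes ERK5, was 1189.7 and 1023, against 1008 and 895. Map2k5 was 29.8 and 40.0 in KD blastocysts, against 73.7 and 69.5 in NC blastocysts, and Map3k2 was 486 and 545, against 415 and 416. Of TGF-beta and SMAD genes, which act on Klf10, 9 were tested in morulae and 10 in blastocysts and none passed (lowest limma adjusted p = 0.530 and 0.234; medians -0.15 and 0.01). The receptor gene Tgfbr2 was 24.3 and 27.1 in KD morulae, against 58.0 and 46.9 in NC morulae, and 87.5 and 77.6 in KD blastocysts, against 40.8 and 42.9 in NC blastocysts. Tgfbr1 was 287 and 281 in KD morulae, against 404 and 335 in NC morulae, and Tgfb2 was 11.3 and 35.3 in KD blastocysts, against 1.98 and 5.91 in NC blastocysts.

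Partners of the proteins were examined next. Of 11 corepressors and coactivators none passed at either stage (lowest limma adjusted p = 0.672 in morulae and 0.192 in blastocysts; medians -0.07 and -0.09). Sin3a, a scaffold used by Klf9 and Klf10, was 1149.6 and 1086 in KD blastocysts, against 1614 and 1360.0 in NC blastocysts, and Kat2b, an acetyltransferase, was 172 and 249.2, against 314 and 364. The acetyltransferase Ep300 was 2277 and 2350.5 in KD morulae, against 2624 and 2595 in NC morulae, and Hdac2 was 3165 and 2741, against 3702 and 3035. Of 7 ubiquitin ligases that act on Kruppel-like factors none passed (lowest adjusted p = 0.611 and 0.479 in limma; medians -0.0095 and -0.12). Wwp1 was 493 and 411 in KD morulae, against 641 and 517 in NC morulae, and 750.4 and 814 in KD blastocysts, against 892 and 885 in NC blastocysts. Itch was 1131 and 1526 in KD morulae, against 1382 and 1642 in NC morulae, and Fbxw7 was 243 and 239.6 in KD blastocysts, against 284 and 305 in NC blastocysts.

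Genes of the naive pluripotency network, with which Klf2, Klf4 and Klf5 share targets in stem cells, lay mostly on the low side in KD blastocysts. Of 17 tested, 14 were lower and 3 higher, and both KD libraries were below NC for 10 and above for 1, where 24.9% and 24.6% of all genes were. The median log2 fold change was -0.23, and none passed (lowest limma adjusted p = 0.124). Esrrb was 1278 and 1372 in KD blastocysts, against 1747 and 2383 in NC blastocysts (-0.62, adjusted p = 0.143 in limma). Tcl1 was 15.6 and 26.8 in KD, against 70.3 and 96.5 in NC (-1.96, limma adjusted p = 0.124). Nanog overlapped, at 5943 and 6542 in KD, against 5783 and 6782 in NC, as did Zfp42 (0.02) and Tbx3 (0.04). This list, like the others, was drawn up with earlier results of these data known. In morulae 5 of 17 were higher and 12 lower, with a median of -0.12 that was 0.03 without KD replicate 2. Tfcp2l1 was 18914 and 17883 in KD morulae, against 27194 and 21113 in NC morulae (-0.38), and Tfe3 was 1134 and 1248, against 980.3 and 1006.

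Markers of the other embryonic lineages lay mostly on the high side in KD blastocysts. Of 19 tested trophectoderm genes 16 were higher, KD was above NC for 12 and below for 1 (24.6% and 24.9% of all genes), and the median was 0.25, while none passed (lowest limma adjusted p = 0.124). Gata3 was 10401 and 10674 in KD, against 8789.9 and 8024 in NC, and Hand1 was 1012 and 529, against 322 and 183. Of 17 primitive endoderm genes 13 were higher, KD was above NC for 8 and below for 0, and the median was 0.42 (0.15 to 0.80 when a library was left out), again with none past the threshold (lowest adjusted p = 0.0996 in limma). Serpinh1, a collagen chaperone, was 2147 and 2753 in KD, against 807 and 1315 in NC, and Amn was 278 and 239, against 45.9 and 94.8. The rise was not shared by all genes of this list, of which 4 were lower. Gata6 was 8066 and 9102 in KD, against 8901 and 10213 in NC (log2 fold change -0.15). Hnf4a was also lower (-0.47), while Sox17 (0.42) and Pdgfra (0.12) were higher. KD and NC libraries overlapped for Gata6, Hnf4a, Sox17 and Pdgfra. The part of these lineage genes in the values of the Kruppel-like factors was not tested.

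In morulae 11 of 20 trophectoderm genes were higher, with KD above NC for 4 and below for 6 (median 0.08, or -0.25 without NC replicate 2, -0.05 without KD replicate 1 and -0.0036 without KD replicate 2). Dsp was 2748 and 2755 in KD, against 4522 and 3873 in NC, and Pkp2 was 486 and 566, against 896 and 834. Of 15 primitive endoderm genes 10 were higher, with KD above NC for 8 and below for 2, where 20.7% and 21.2% of all genes were (median 0.35, or 0.18 to 0.55 when a library was left out). Serpinh1 was 336 and 342 in KD, against 57.6 and 37.6 in NC, and Dkk1 was 150.1 and 64.1, against 18.5 and 7.23. None of these passed (lowest adjusted p = 0.303 in limma).

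**Figure D4:**
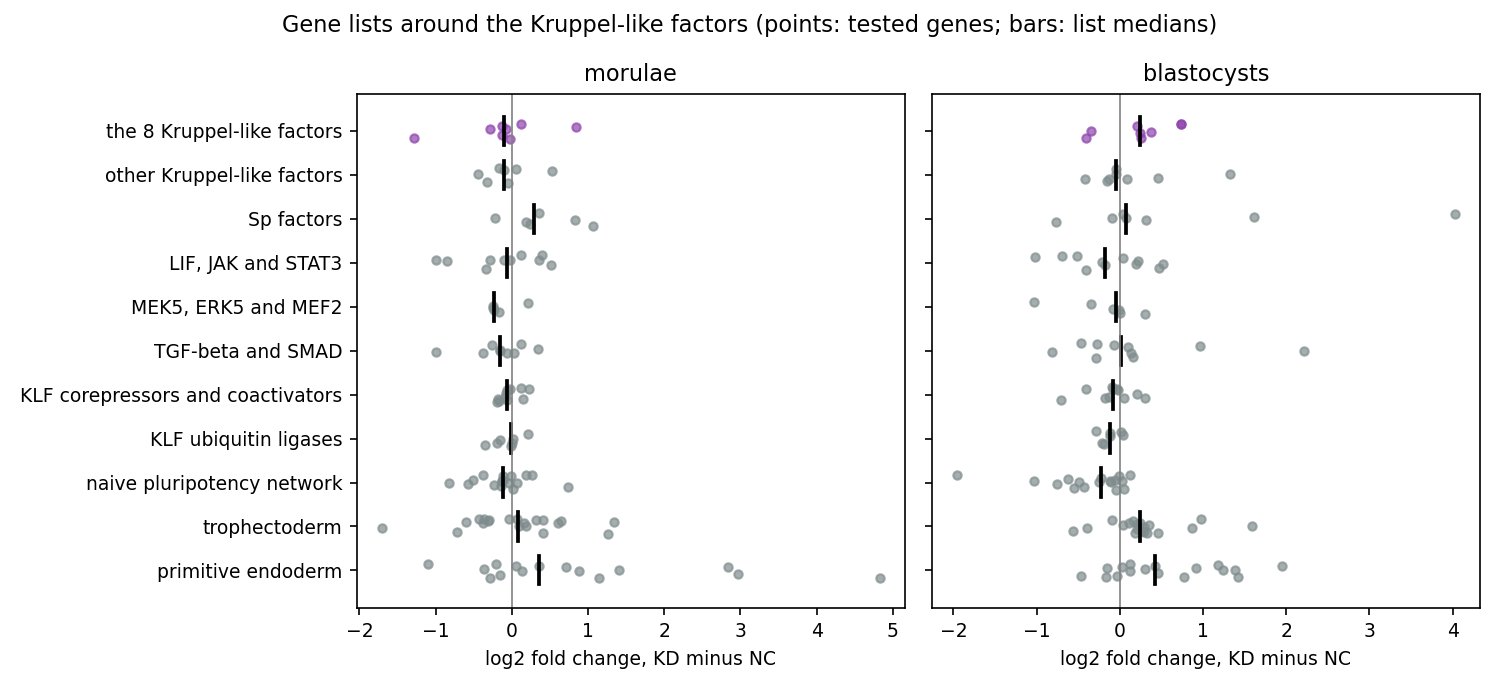
Log2 fold change, KD minus NC (x axis), of each tested gene in 11 groups (y axis), morulae left and blastocysts right, with points for genes and bars for list medians. In blastocysts the median of the 8 Kruppel-like factors is 0.25, that of the naive pluripotency network -0.23 and that of trophectoderm 0.25.

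Markers of maternal cells were measured as sums over each list. Of 15 cumulus, granulosa and stromal genes 5 had values in morulae, which summed to 265 and 272 in KD, against 87.2 and 186 in NC, and 8 had values in blastocysts, which summed to 155 and 391 in KD, against 171 and 308 in NC. Foxl2 was 109 and 77.1 in KD morulae, against 38.9 and 28.9 in NC morulae, and 63.9 and 42.6 in KD blastocysts, against 16.3 and 25.1 in NC blastocysts. Blood genes summed to 20.4 and 29.3 in KD morulae, against 23.1 and 23.3 in NC morulae, and to 21.3 and 102 in KD blastocysts, against 25.8 and 185 in NC blastocysts. Inhbb, a subunit of activin, was 120.2 and 171 in KD morulae, against 21.3 and 154 in NC morulae. Hbb-bs was at 0 in the first library of each blastocyst group and at 40.0 (KD) and 82.9 (NC) in the second. Oviduct and uterine genes summed to 125 and 112 in KD, against 99.2 and 76.3 in NC morulae, and to 699.9 and 843 in KD, against 703 and 728 in NC blastocysts. Most of the blastocyst sum was Wfdc2, a secreted protein of such epithelia, at 650.2 and 753 in KD, against 653 and 699 in NC blastocysts. In morulae Wfdc2 was 74.8 and 72.2 in KD, against 71.9 and 51.2 in NC. Whether transcripts of these lists, Wfdc2 among them, came from maternal cells or from the embryo was not tested. Muc1, a mucin, was 34.5 and 21.6 in KD morulae, against 4.24 and 5.52 in NC morulae, and 35.6 and 74.1 in KD blastocysts, against 34.9 and 17.7 in NC blastocysts. In KD blastocysts Col1a1 was 9.62 and 43.6, against 13.6 and 92.4 in NC, Hba-a2 was 4.43 and 23.5, against 6.56 and 35.4, and Ovgp1 was 12.3 and 16.1, against 15.4 and 7.21. No tested gene of these lists passed (lowest limma adjusted p = 0.240), with 3 tested per list and stage except for blood genes in morulae, where 0 passed the filter on low values, and their part in the Klf values was not tested.

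Genes with the most similar profile were sought for the members tied to pluripotency. Likeness was the root mean square difference of log2(value + 1), centred on each stage, over the 8 libraries and among 11702 genes. For Klf4, whose own profile had a root mean square of 0.52, near profiles were those of Tmem230 (0.16) and Hydin (0.17). Tmem230 was 135 and 173 in KD, against 401 and 364 in NC, in morulae, and 284 and 424 in KD, against 379 and 610.1 in NC, in blastocysts. For Klf2 (own 0.35) the nearest were Hsd17b14 (0.10), Kif13b (0.10) and Slc25a12 (0.11). Klf5 (own 0.12) lay nearest to Glb1 (0.04), Ap3m1 (0.05) and Rps29 (0.05), and Klf17 (own 0.59) to Map6 (0.12), Ly6e (0.18) and Mettl7a2 (0.18). Among the members themselves the closest pair was Klf5 and Klf9 (0.10) and the most distant was Klf4 and Klf17 (0.95), while Klf2 and Klf4 differed by 0.43. The measure is small between genes that vary little, as Klf5 did (own 0.12). The closeness of Klf5 and Klf9 therefore does not show that they changed together.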

How the data were processed

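Polyadenylated RNA of 8 libraries was analysed, grouped by their titles. The authors deposited 1 table per stage with a normalized signal per gene. The build mm10 and the tools DESeq2 and Salmon 0.14.1 are named, without their roles, per the submitters' processing notes. Genes detected in several libraries seldom had low values that were whole multiples of 1 step per library (9.28% to 23.9%, tolerance 0.01), so whole reads were not recovered, no count test was run and no counting interval is given. Symbols matched 98.9% of IDs, and coordinates and lengths come from GENCODE vM21.

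The scale for testing was log2(value + 1), and limma 3.58.1 (R 4.3.3) was fitted with eBayes and its trend option to KD minus NC in each table, for genes with a mean of at least 10, with Benjamini-Hochberg adjustment over all genes and a threshold of 0.05. This scale understates changes of low genes. A permutation test of 2 against 2 libraries cannot pass 0.05. The fit was run on simulated data with independent noise. That run held no effect shared by same-numbered libraries and says nothing about such an effect. The members and 13 gene lists were chosen with earlier results of these data known. Genes named beside the members are the 2 with the smallest p per list and stage and the 3 nearest profiles of 4 members, of which 1 is not reported here. Stat3 in blastocysts, Lifr, Il6st, Pim1 and Pim3 in morulae, and Pou5f1, Cdx2 and Krt8, were chosen after their values were seen. So were Nanog, Zfp42, Tbx3, Gata6, Hnf4a, Sox17 and Pdgfra in blastocysts. Other scalings, filters, pseudocounts, a fit without the trend, a replicate block and leaving out each library were tried.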

Additional observations from a re-analysis of the deposited data

Results flagged for a closer look

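The members and the genes named beside them were looked at where they were tested at both stages. Of these, 5 genes had both KD libraries on one side of NC in morulae and on the other side in blastocysts. Over all 12875 genes tested at both stages the share was 4.33%. The named genes were mostly picked by a small p at a stage, and Krt8 after its values were seen. The count of 5 therefore cannot be read against that share. None of the 8 Kruppel-like factors was among the 5, and the difference between the stages was not tested for any gene here. Lif had a log2 fold change of 0.21 in blastocysts and -0.85 in morulae. Tgfbr2 had 0.96 in blastocysts and -0.99 in morulae. Map3k2 had 0.31 in blastocysts and -0.24 in morulae. Dsp, which encodes the desmosome protein desmoplakin, had 0.21 in blastocysts and -0.60 in morulae. Krt8, a keratin of trophectoderm, had 0.25 in blastocysts and -0.36 in morulae. Sp8 also lay on opposite sides of NC, but its morula values did not pass the filter on low values.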

How the results depend on the processing

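Of the 8 members, none changed sign under another scaling, pseudocount or filter, the fit without the trend or the block, at either stage. Leaving out a library changed the sign of Klf2, Klf3, Klf5 and Klf10 in morulae and of none in blastocysts. No member passed in blastocysts under any of these alternatives, where the lowest adjusted p was 0.0529, for Klf3 with the replicate block, and 0.170, for Klf4 without NC replicate 1, among the others. With the replicate number as a block, 892 genes were called in morulae (418 higher, 474 lower) and 1208 in blastocysts (633 higher, 575 lower), against 1 and 12 without it. Deviations of same-numbered libraries correlated at 0.30 in morulae and 0.15 in blastocysts across genes, the labels do not say that the number pairs libraries, and the cause was not tested. Without the mean-variance trend 0 genes were called at either stage, and with no filter on low values 27 were called in blastocysts. Leaving out a library gave 1 call in morulae each time and 1 to 3 in blastocysts, with the lone library of a group taken to vary as the remaining group does and fewer libraries in the fit. Of the list medians, 6 of 12 in morulae and 6 of 13 in blastocysts ran across 0 when a library was left out, as did that of the 8 members in morulae (-0.15 to 0.09). Without NC replicate 1 the log2 fold change of Klf17 in morulae was 0.29 and without NC replicate 2 it was 1.39. Depth sets no interval here, and 2 libraries per group limit every comparison.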
